A study of Arabidopsis thaliana with 8 samples.

Results

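The genes described here lie next to one another on chromosome 4 of Arabidopsis thaliana, between the locus numbers AT4G22100 and AT4G23390. The count table held 159 loci of this segment among 33518 loci in all, and 1 further locus number inside the interval was left out by the rule that defined the segment. The segment was chosen by the measured fold changes of its loci between the iaa3 mutant and wild type seedlings with hormone in these same libraries, many of which were large, so the difference between iaa3 and wild type with hormone, its calls included, is a description of what chose the segment and is no test of it, and no p-value is given for it. The difference in mock was known as well when the segment was proposed, and its p-values are no independent support for the choice.

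The RNA-Seq libraries came from etiolated (dark-grown) seedlings of the iaa3 mutant and of the wild type accession Col-0. Seedlings of every group were kept dark for 5 days on plates with propiconazole (PPZ, 2 µM), which blocks the synthesis of brassinosteroids, and then received brassinolide (BL, 100 nM), a highly active brassinosteroid, or a mock solution for 4 hr. The 4 groups were iaa3 with BL, Col-0 with BL, iaa3 mock and Col-0 mock, with 2 libraries each, and the labels do not say whether replicates were separate cultures, so p-values measure only the spread between these libraries. The iaa3 line (iaa3/shy2-2) is 1 gain-of-function allele in which the IAA3 protein escapes auxin-triggered degradation, so the mutation acts in every cell that makes IAA3, and PPZ was present in all groups, the mock groups included.

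IAA3 belongs to the Aux/IAA repressors, which bind auxin response factors (ARFs) and keep them from activating their targets until auxin triggers the breakdown of the repressor. Brassinosteroids act through the transcription factor BZR1, and in the dark-grown hypocotyl the auxin and brassinosteroid pathways share many target genes. The segment is known for a tandem array of genes for cysteine-rich receptor-like kinases (CRKs), membrane proteins with a cysteine-rich outer part and an intracellular kinase that are often induced by pathogens and salicylic acid. It also holds small arrays for lipid-transfer-type proteins, which are mostly small secreted cysteine-rich proteins, for defensin-like secreted peptides, and for F-box proteins, the subunits of ubiquitin ligases that choose their targets.

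Library totals ran between 18107519 and 23183988 counts, and the segment took 0.216 to 0.252% of them. IAA3 itself had 11.4 and 12.9 CPM (read counts scaled to a common library total) in iaa3 with BL, against 129 and 121 CPM in Col-0 with BL, and 13.7 and 11.1 CPM in iaa3 mock, against 45.2 and 45.0 CPM in Col-0 mock. A transcript count does not show the mutation itself. The markers of dark-grown seedlings were present over the 8 libraries. PORA, a chlorophyll synthesis enzyme made in the dark, had 426 to 1170 CPM, and the photoreceptor gene PHYA had 1225 to 1706 CPM. Both genes listed as markers of light-grown seedlings were present too. RBCS1A had 2052 to 2515 CPM, and the light-harvesting gene LHCB1.3 had 911 to 2100 CPM. These levels alone do not tell dark-grown from light-grown seedlings. The iaa3 libraries with BL stood apart in stress genes. Both stress lists were chosen with results of these data known, so their counts are a description. By the rule given below, 11.2% of all tested loci were higher in iaa3 with BL and 8.47% in mock. All 12 genes of a heat shock list were higher there, with summed levels of 696 and 775 CPM, against 62.0 and 48.0 CPM in Col-0 with BL. In mock none of them was higher, the sums being 54.7 and 47.5 CPM in iaa3 and 85.8 and 71.8 CPM in Col-0. AT3G46230, AT2G29500 and AT4G10250 were lower in iaa3 mock than in Col-0 mock (log2 fold changes -1.04, -1.20 and -1.38). All 12 genes of a hypoxia list were also higher, with 6595 and 7039 CPM in iaa3 with BL, against 382 and 485 CPM in Col-0 with BL, while in mock 2 of the 12 were higher and the sums were 2850 and 1661 CPM in iaa3, against 1601 and 368 CPM in Col-0. The part of these differences in the results below was not tested.

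Of the 159 members, 100 had enough counts to be tested, 59 were too low and 28 of these had no count in any library. A member that passed this filter through 1 high group had to differ, so counts over the tested members are a description. A locus was called when the fold change was at least 1.5 and the unadjusted p of edgeR's quasi-likelihood test was under 0.01. With BL, 44 of the 100 tested members were called between iaa3 and Col-0, 19 higher and 25 lower in iaa3. In mock, 37 were called, 14 higher and 23 lower. The same rule called 25.0% of all tested loci with BL, 11.2% as higher and 13.8% as lower, and 17.9% in mock, 8.47% as higher and 9.48% as lower. The first of these contrasts chose the segment, and nothing is read from its count. When only loci with at least 10 counts in every library were kept, 29 of 75 members were called with BL and 23 of 75 in mock, where this filter called 23.75% and 16.65% of all loci kept.

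Many members were called the same way under both treatments. The contrasts have no library in common, but both were known when the segment was proposed. The shares below are therefore a description and no replication. In iaa3, 13 members were higher and 18 lower under both treatments, 12 were called with BL only and 5 in mock only, and RBL7 was called in opposite directions. Over all tested loci, 12% were called the same way under both treatments. Of the segment's members called with BL, 70.5% were called the same way in mock, and of those called in mock 83.8% were called the same way with BL, while the shares over all loci were 47.8% and 66.6%. A call in only 1 treatment does not show that the treatments differed. That difference is tested below as an interaction.

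**Figure D1:**
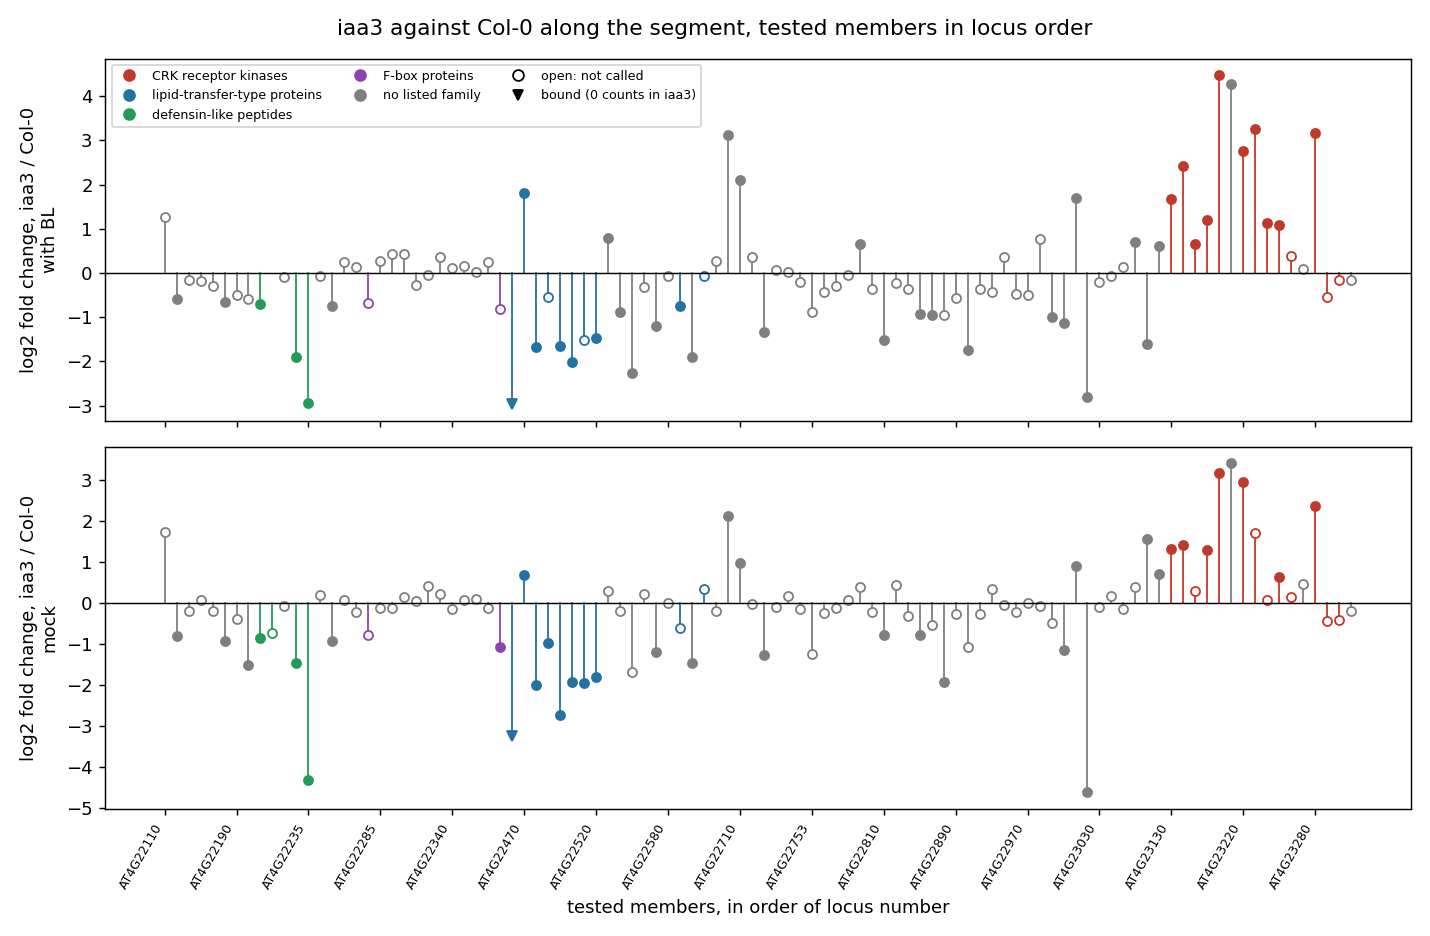
Log2 fold change between iaa3 and Col-0 with BL (upper panel) and in mock (lower panel) for the tested members in order of locus number. Filled points were called and open points were not, triangles are lower bounds for a gene without counts in iaa3, and a member with at most 3 counts over both groups is not drawn in that panel. The lipid-transfer-type genes sit mostly below 0 and the CRK genes mostly above 0 in both panels.

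Stretches of neighbouring tested members called the same way were counted, and whether they are longer than chance gives was not tested. With BL the longest stretch of higher genes held 11, from GSH1 through CRK5, EP1, CRK10, CRK11, CRK13, AT4G23215, CRK14, CRK15 and EMB1290 to CRK18. No stretch of lower genes held more than 2, and several held 2. Among these were the defensin-like genes AT4G22230 and AT4G22235 and the lipid-transfer-type genes AT4G22505 and AT4G22513. ORP2A with AT4G22545 and AT4G22610 with AT4G22620 were others. In mock no stretch of higher genes held more than 4. One ran from RBL7 through GSH1 and CRK5 to EP1, and another from CRK11 through CRK13 and AT4G23215 to CRK14. The longest stretch of lower genes in mock held 6, the lipid-transfer-type genes AT4G22485, AT4G22490, AT4G22505, AT4G22513, AT4G22517 and AT4G22520. At the ends of the interval, BGLU3 had 0 to 2 counts in a library and AT4G23390 had none. Just outside, AT4G22090 had none either, and the aquaporin gene PIP1;5 had 821 and 963 counts in iaa3 with BL, against 5166 and 4296 in Col-0 with BL, and 1213 and 1166 in iaa3 mock, against 5551 and 5795 in Col-0 mock.

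The CRK array runs from AT4G23130 to AT4G23320 and holds 20 members, of which 13 were tested. EP1 is counted among them, although it is described only as similar to receptor-like kinases. Its coding sequence has 798 bases, against 1587 to 3132 for the other members. With BL, 10 of the 13 were called and all 10 were higher in iaa3. In mock, 7 were called, again all higher. Of the 9 CRK genes with at least 10 counts in every library, 6 were called with BL and 4 in mock, and without iaa3 mock replicate 1 the mock count was also 4. The median log2 fold change of the tested CRK genes was 1.19 with BL and 1.29 in mock, against 0.00 and -0.01 over all tested loci. CRK19, CRK21 and CRK22 were called under neither treatment.

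CRK13, whose overexpression causes hypersensitive cell death and resistance to pathogens, differed most of the CRK genes. It had 19.5 and 31.5 CPM in iaa3 with BL, against 1.16 and 1.12 CPM in Col-0 with BL, a log2 fold change of 4.48 ± 0.26 (SE, n = 2 libraries per group here and below). In mock it had 12.2 and 12.9 CPM in iaa3, against 1.18 and 1.56 CPM in Col-0, and the log2 fold change was 3.18 ± 0.26 (edgeR's quasi-likelihood test, Benjamini-Hochberg adjusted p = 8.33e-06). The iaa3 and Col-0 libraries were far apart under both treatments. The small neighbouring locus AT4G23215 is annotated as a transcribed pseudogene without a product, lies between CRK13 and CRK14 and does not overlap CRK13. It moved the same way, with log2 fold changes of 4.28 ± 0.53 with BL and 3.42 ± 0.62 in mock (adjusted p = 0.00152). The mock value was 2.68 without Col-0 mock replicate 2 and 4.72 without Col-0 mock replicate 1. It was not counted as a CRK gene, and sequence shared with CRK genes was not searched for it.

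CRK14 had 6.08 and 7.92 CPM in iaa3 with BL, against 0.985 and 1.07 CPM in Col-0 with BL. In mock it had 2.46 and 2.27 CPM in iaa3, against 0.363 and 0.239 CPM in Col-0, with a log2 fold change of 2.97 ± 0.32 (adjusted p = 4.36e-05), close in size to the 2.76 ± 0.22 with BL. CRK14 therefore stood higher in iaa3 at both hormone levels. CRK20 was low in Col-0, with 0.0896 and 0.402 CPM with BL and 0.408 and 0.160 CPM in mock, while iaa3 had 2.18 and 2.34 CPM with BL and 1.3 and 1.63 CPM in mock. Its log2 fold changes were 3.17 ± 0.47 with BL and 2.38 ± 0.48 in mock (adjusted p = 0.00289), and they moved between 2.48 without Col-0 BL replicate 1 and 4.56 without Col-0 BL replicate 2, and in mock between 1.83 without Col-0 mock replicate 2 and 3.15 without Col-0 mock replicate 1.

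CRK11, a gene induced by bacterial infection, took the most counts of the called CRK genes. It had 38.9 and 51.0 CPM in iaa3 with BL, against 19.2 and 20.3 CPM in Col-0 with BL, and 29.8 and 26.6 CPM in iaa3 mock, against 11.3 and 11.8 CPM in Col-0 mock. The log2 fold changes were 1.19 ± 0.12 and 1.29 ± 0.13 (adjusted p in mock = 2.58e-05), and the genotypes did not overlap. EP1, a salicylic-acid-induced member of the array, had 2.12 and 2.24 CPM in iaa3 with BL, against 0.358 and 0.447 CPM in Col-0 with BL. In mock it had 0.760 and 0.726 CPM in iaa3, against 0.227 and 0.319 CPM in Col-0, with a log2 fold change of 1.41 ± 0.38 (adjusted p = 0.0141), and this call was lost without Col-0 mock replicate 1 and without either iaa3 mock replicate.

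CRK5 and CRK18 were higher under both treatments too. CRK5 had 2.35 and 2.09 CPM in iaa3 with BL, against 0.672 and 0.715 CPM in Col-0 with BL, and its mock values were spread, with 2.59 and 1.36 CPM in iaa3, against 1.04 and 0.558 CPM in Col-0. The log2 fold change in mock was 1.32 ± 0.37 (adjusted p = 0.0176) and fell to 0.78, not called, without iaa3 mock replicate 1, and the call was also lost without Col-0 mock replicate 2. With BL the log2 fold change of CRK5 was 1.67 ± 0.39, a call lost without either Col-0 BL replicate. CRK18 had log2 fold changes of 1.09 ± 0.19 with BL and 0.64 ± 0.19 in mock (adjusted p = 0.0233), the mock call being lost without either Col-0 mock replicate and without iaa3 mock replicate 1.

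CRK10, CRK15 and EMB1290, which encodes CRK17, were called with BL only. CRK10 had 25.2 and 29.9 CPM in iaa3 with BL, against 17.4 and 17.4 CPM in Col-0 with BL. Its log2 fold change was 0.66 ± 0.11 with BL (0.53, not called, without iaa3 BL replicate 2) and 0.30 ± 0.12 in mock (adjusted p = 0.0778). CRK15 was close to the floor in Col-0, so its counts were summed over the libraries. The ratio of the summed counts after scaling was 10.3 with BL (95% interval 3.17 to 53.3, counting error only) and 3.40 in mock (1.19 to 11.9). EMB1290 had 7.23 and 9.81 CPM in iaa3 with BL, against 4.26 and 3.57 CPM in Col-0 with BL, while the 4.20 and 5.54 CPM of iaa3 mock lay within the range of 3.67 to 5.46 CPM of Col-0 mock or next to it (log2 fold change 0.08 ± 0.23, adjusted p = 0.811).

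CRK19, the CRK gene with the most counts, was not called. It had 138 and 157 CPM in iaa3 with BL, against 115 and 110 CPM in Col-0 with BL, and 113 and 102 CPM in iaa3 mock, against 108 and 86.0 CPM in Col-0 mock. Its log2 fold changes were 0.39 ± 0.11 and 0.16 ± 0.11 (adjusted p in mock = 0.284). CRK22 had 4.42 and 3.04 CPM in iaa3 with BL, against 4.17 and 4.07 CPM in Col-0 with BL, and the groups overlapped. CRK21 had 0.631 and 0.598 CPM, against 1.16 and 0.625 CPM. The array was not uniform, since CRK20 was called while CRK19 and CRK21 on either side of it among the CRK genes were not. The 7 CRK genes below the filter had 0 to 12 counts in a library, the highest being 12 counts of CRK16 in Col-0 mock.

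**Figure D2:**
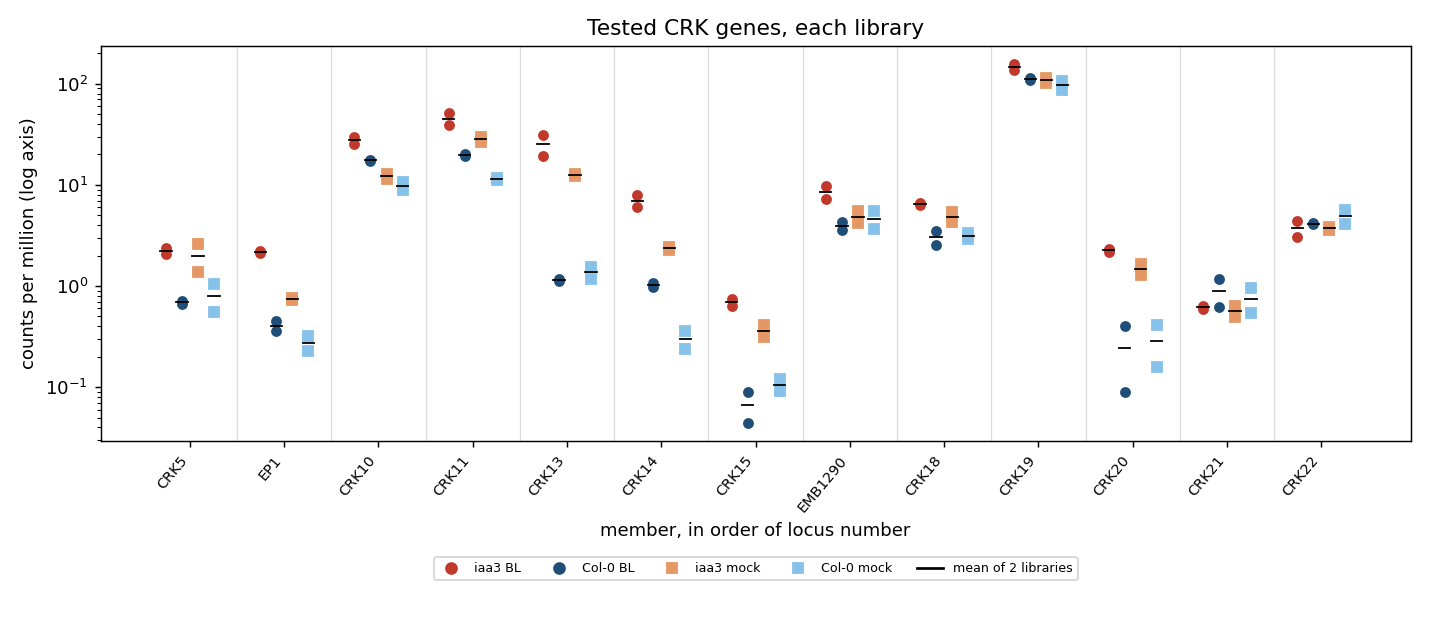
CPM, on a log axis, of the 13 tested CRK genes in each of the 8 libraries, with group means as bars. For CRK13 the iaa3 libraries lie between 12.2 and 31.5 CPM and the Col-0 libraries between 1.12 and 1.56 CPM, while for CRK19, CRK21 and CRK22 the groups lie close together.

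Related genes can share reads, and how reads matching several places were counted is not given in the sources used here. The 20 CRK proteins were 20.45 to 84.94% identical in pairs, with a median of 52.05% and the highest value for CRK19 and CRK20. The coding sequence of CRK13 shared an unbroken run of 309 bases with that of CRK22, a later gene of the array that was not called. The end of that shared run, with the bases that follow, is shown because it is where the sequences part. The stretch covers positions 744 to 823 of both coding sequences (chromosome 4, RefSeq TAIR10.1), and capitals mark the 22 bases that differ.
CRK13: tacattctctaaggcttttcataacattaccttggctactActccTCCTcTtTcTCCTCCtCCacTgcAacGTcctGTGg
CRK22: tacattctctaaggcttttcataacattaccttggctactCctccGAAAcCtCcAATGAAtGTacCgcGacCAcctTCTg

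Reads that fall inside the shared run could belong to either gene, while reads across these bases tell them apart. CRK16 and EMB1290 shared 339 bases, and their annotated loci overlap by 1190 bases on the same strand, so that reads there cannot be assigned to one of them by position. CRK6 and CRK8 shared 368, and CRK18 shared 128 with EMB1290. For CRK14 the longest shared run was 41 bases, for CRK11 it was 56, for CRK10 it was 57, for CRK19 it was 74 and for CRK20 it was 86. The values of CRK13, CRK22, EMB1290 and CRK16 are uncertain to this extent.

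The lipid-transfer-type genes lay mostly between AT4G22460 and AT4G22666 and ran in the other direction. The coding sequences of AT4G22470, AT4G22485 and AT4G22505 were 1128, 1971 and 1593 bases long, against 348 to 489 for the other listed members. Of 13 members, 10 were tested. With BL, 7 were called, 6 lower and 1 higher in iaa3, and in mock 8 were called, 7 lower and 1 higher. The median log2 fold change was -1.49 with BL and -1.85 in mock. AT4G22460 had no count in any iaa3 library, against 15 and 13 counts in Col-0 with BL and 20 and 10 counts in Col-0 mock. It was therefore at least 7.83-fold lower with BL and at least 9.42-fold lower in mock, taking 3 counts over the group as the floor.

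AT4G22485 was lower in iaa3 under both treatments. It had 7.23 and 6.08 CPM in iaa3 with BL, against 23.3 and 18.8 CPM in Col-0 with BL, a log2 fold change of -1.67 ± 0.19. In mock it had 11.8 and 17.3 CPM in iaa3, against 55.2 and 60.5 CPM in Col-0, and the log2 fold change was -1.99 ± 0.15 (edgeR, adjusted p = 5.55e-06). AT4G22505 had 1.49 and 1.3 CPM, against 4.93 and 3.75 CPM, with BL and 1.52 and 3.22 CPM in iaa3, against 16.6 and 14.9 CPM in Col-0, in mock (-2.73 ± 0.24, adjusted p = 1.28e-05, and -3.37 without iaa3 mock replicate 2). In both genes the genotypes were clearly separated under both treatments.

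AT4G22513, AT4G22517 and AT4G22520 lie side by side and had fewer counts. AT4G22513 had 0.459 and 0.498 CPM in iaa3 with BL, against 1.93 and 1.97 CPM in Col-0 with BL, and 1.03 and 1.32 CPM in iaa3 mock, against 3.90 and 4.98 CPM in Col-0 mock (mock log2 fold change -1.92 ± 0.22, adjusted p = 8.05e-05). AT4G22517 was called in mock (-1.95 ± 0.40, adjusted p = 0.00308) but not with BL (-1.52 ± 0.56). AT4G22520 was called under both, at -1.46 ± 0.46 with BL and -1.79 ± 0.34 in mock (adjusted p = 0.00189), and the value with BL was -0.82 without iaa3 BL replicate 2 and -2.45 without iaa3 BL replicate 1.

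The AT4G22513 and AT4G22517 proteins were 93.91% identical, the closest pair of the family. Positions 290 to 348 of both coding sequences are given because they span the end of the longest shared run (chromosome 4, RefSeq TAIR10.1). The 1 base that differs in this window is in capitals. Bases before it are identical by the choice of window, and differences elsewhere are not shown.
AT4G22513: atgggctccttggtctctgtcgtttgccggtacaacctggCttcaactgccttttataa
AT4G22517: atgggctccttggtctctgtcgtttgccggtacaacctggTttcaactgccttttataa

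Their longest identical run was 68 bases, and the values of these 2 genes cannot be taken as fully separate. The remaining pairs of the family were less alike, the median identity over all pairs being 28.55%, and AT4G22485, AT4G22490 and AT4G22505 shared no run longer than 21 bases with any annotated coding sequence. Loci on the other strand overlap most of these genes in RefSeq TAIR10.1, by 575 bases for AT4G22460, 1317 for AT4G22470, 1971 for AT4G22485, 1864 for AT4G22505, 631 for AT4G22513, 620 for AT4G22517 and 357 for AT4G22520. Whether strand was used in counting is not stated, so reads of these genes and of their antisense partners may be mixed.

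AT4G22470 sits between AT4G22460 and AT4G22485 and went the opposite way. It had 38.5 and 47.5 CPM in iaa3 with BL, against 11.5 and 13.0 CPM in Col-0 with BL, a log2 fold change of 1.81 ± 0.13. In mock it had 62.9 and 76.5 CPM in iaa3, against 43.3 and 42.7 CPM in Col-0, and the log2 fold change was 0.70 ± 0.11 (adjusted p = 0.000655), which fell to 0.55 and was not called without iaa3 mock replicate 2. The other lipid-transfer-type calls were AT4G22490, lower in mock (-0.97 ± 0.11, adjusted p = 8.55e-05), and AT4G22610, lower with BL (-0.75 ± 0.20).

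Of 8 defensin-like genes 4 were tested, and 3 were lower in iaa3 under both treatments. AT4G22235 had 0.230 and 0.0996 CPM in iaa3 with BL, against 1.16 and 1.38 CPM in Col-0 with BL. In mock its summed counts were 4 in iaa3, against 89 in Col-0, a ratio of 21.0 after scaling (95% interval 7.91 to 78.6, counting error only). It overlaps AT4G22233 on the other strand over 626 bases, and reads of that pair may be mixed in the same way. AT4G22230 had 0.287 and 0.947 CPM, against 2.37 and 2.41 CPM, with BL and 0.492 and 0.363 CPM, against 1.32 and 1.08 CPM, in mock (-1.46 ± 0.44, adjusted p = 0.0228). Its log2 fold change with BL of -1.90 ± 0.38 moved between -3.03 without iaa3 BL replicate 2 and -1.33 without iaa3 BL replicate 1, and the mock call was lost in 5 of the 8 leave-one-out fits. AT4G22212, which had the most counts of the 4, had log2 fold changes of -0.70 ± 0.17 with BL and -0.85 ± 0.17 in mock (adjusted p = 0.00252). Of the 7 F-box genes 2 were tested, and AT4G22390 alone was called, lower in mock (-1.07 ± 0.28, adjusted p = 0.0125).

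**Figure D3:**
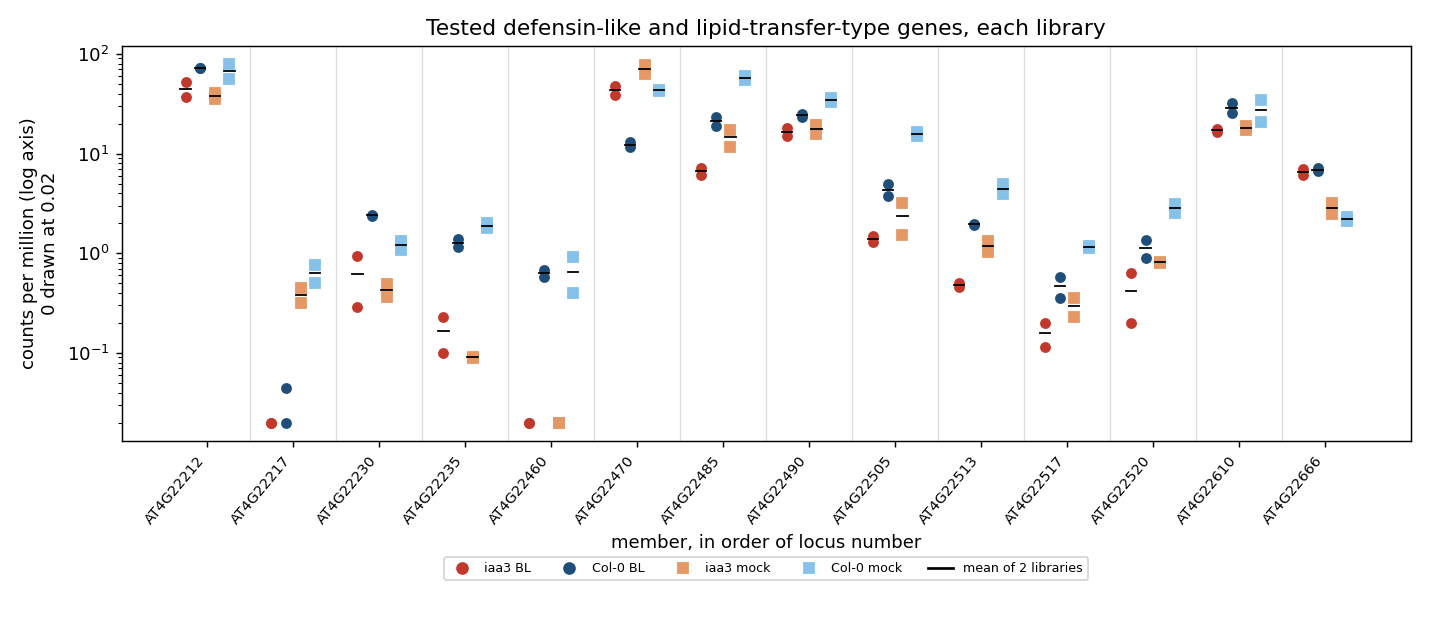
CPM, on a log axis with 0 drawn at 0.02, of the 4 tested defensin-like and 10 tested lipid-transfer-type genes in each of the 8 libraries, with group means as bars where both libraries are above 0. AT4G22485 has 6.08 to 17.3 CPM in the iaa3 libraries and 18.8 to 60.5 CPM in the Col-0 libraries, and AT4G22470 is higher in iaa3.

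Genes outside these families also differed. With BL, the largest fold increase among them was that of AT4G23215, the transcribed pseudogene inside the CRK array. Next came CYP706A1 and CYP706A2, which encode cytochrome P450 enzymes. CYP706A1 had 82.0 and 164 CPM in iaa3 with BL, against 13.1 and 15.1 CPM in Col-0 with BL, and 67.3 and 84.7 CPM in iaa3 mock, against 19.0 and 15.6 CPM in Col-0 mock. The log2 fold changes were 3.13 ± 0.28 and 2.14 ± 0.27 (adjusted p in mock = 0.000137), and the iaa3 BL libraries differed from each other, the value with BL being 2.54 without iaa3 BL replicate 2 and 3.54 without iaa3 BL replicate 1. CYP706A2 had log2 fold changes of 2.10 ± 0.20 with BL and 0.98 ± 0.19 in mock (adjusted p = 0.00242). The coding sequences of the 2 genes share a run of 873 bases, so their counts are not independent measurements.

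UTR2, a UDP-galactose transporter, had 38.1 and 47.4 CPM in iaa3 with BL, against 12.9 and 13.4 CPM in Col-0 with BL, and 39.2 and 40.9 CPM in iaa3 mock, against 22.5 and 20.0 CPM in Col-0 mock (mock log2 fold change 0.92 ± 0.10, adjusted p = 6.62e-05). GSH1, the enzyme of the first step of glutathione synthesis, was higher by a smaller factor, with 298 and 345 CPM in iaa3 with BL, against 209 and 211 CPM in Col-0 with BL, and 387 and 406 CPM in iaa3 mock, against 258 and 227 CPM in Col-0 mock (0.71 ± 0.09 in mock, adjusted p = 0.000114). Neither gene's libraries overlapped between genotypes.

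TRM11, next to UTR2, was lower in iaa3. Its summed counts were 4 in iaa3 with BL, against 35 in Col-0 with BL, a ratio of 7.34 after scaling (95% interval 2.62 to 28.4), and 2 in iaa3 mock, against 58 in Col-0 mock, a ratio of 27.3 (7.23 to 231). APT3, an adenine phosphoribosyltransferase that salvages adenine and cytokinin bases, had 4.65 and 5.13 CPM in iaa3 with BL, against 11.4 and 11.2 CPM in Col-0 with BL, and 6.48 and 6.35 CPM in iaa3 mock, against 15.0 and 14.4 CPM in Col-0 mock. Its log2 fold changes were -1.20 ± 0.11 and -1.19 ± 0.10 (adjusted p in mock = 1.14e-05), so it differed by nearly the same factor under both treatments.

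AT4G22620, a SAUR-like gene of the auxin-responsive SAUR family, had 0.344 and 0.747 CPM in iaa3 with BL, against 1.84 and 2.32 CPM in Col-0 with BL, and 0.447 and 0.318 CPM in iaa3 mock, against 1.18 and 0.957 CPM in Col-0 mock (-1.46 ± 0.41 in mock, adjusted p = 0.0165). The mock call was lost without Col-0 mock replicate 1 and without either iaa3 mock replicate. AT4G22730, a leucine-rich repeat protein kinase gene, was lower by -1.34 ± 0.20 with BL and -1.27 ± 0.22 in mock (adjusted p = 0.00128). AT4G22810, which encodes a putative AT-hook DNA-binding protein, was lower by -1.52 ± 0.09 and -0.77 ± 0.09 (adjusted p in mock = 6.75e-05).

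The phosphoesterase gene AT4G23000 was lower by -1.14 ± 0.32 and -1.14 ± 0.31 (adjusted p in mock = 0.0134). Its value with BL was -0.80 without iaa3 BL replicate 1, and the BL call was lost without that library or Col-0 BL replicate 1. The mock call was lost without iaa3 mock replicate 1 or Col-0 mock replicate 2. AT4G22840, a bile acid symporter family gene, was lower by -0.93 ± 0.22 and -0.77 ± 0.18 (adjusted p in mock = 0.00613). Its BL call was lost without iaa3 BL replicate 2, and its mock call without iaa3 mock replicate 1 or Col-0 mock replicate 2.

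Whether the tandem families account for the number of called genes was examined by counting with and without them. The 4 families together held 29 tested members, of which 20 were called with BL and 19 in mock. The 71 tested members outside them held 24 calls with BL, 33.8% of those tested, and 18 in mock, 25.4%. Over all tested loci the shares were 25.0% and 17.9%, and over the rest of chromosome 4, with 3022 loci tested, they were 26.4% and 18.2%. Without the CRK genes alone, 34 of 87 tested members were called with BL (39.1%) and 30 of 87 in mock (34.5%). The families thus held 20 of the 44 calls with BL and 19 of the 37 in mock, and the other 24 and 18 calls fell outside them. Those of the pseudogene AT4G23215, inside the CRK array, are among the calls outside. So are those of CYP706A1 and CYP706A2, which share a coding run of 873 bases and were called under both treatments. They are close relatives but not in the 4 families. These shares describe the segment only, since it had been chosen for its calls with BL with the mock values known, and no test of them was made.

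**Figure D4:**
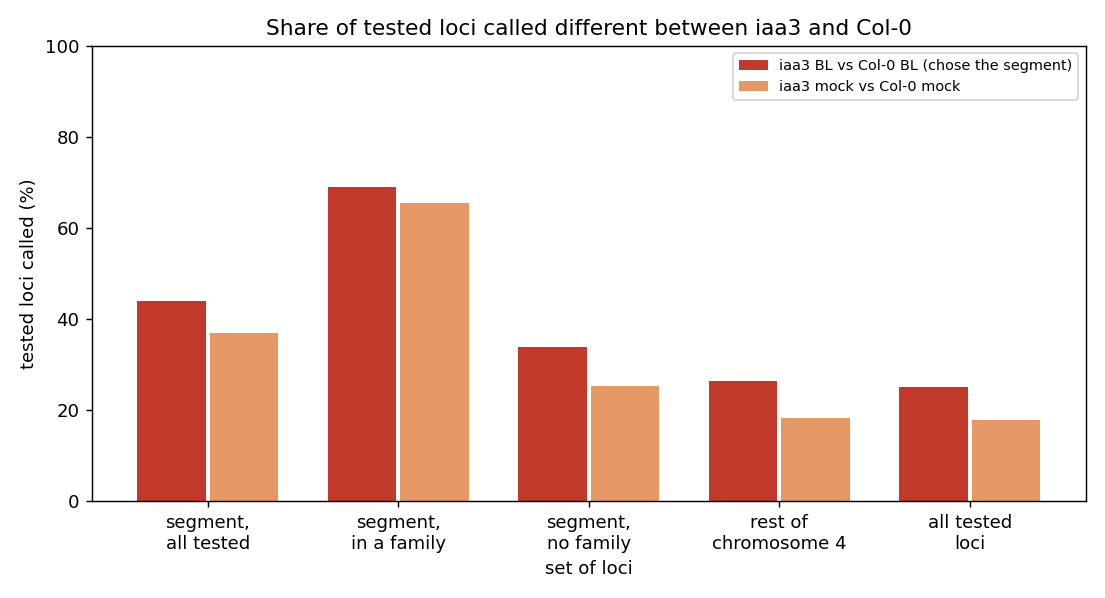
Percentage of tested loci called between iaa3 and Col-0, with BL (the contrast that chose the segment) and in mock, for the segment, its members inside and outside the 4 families, the rest of chromosome 4 and all tested loci. The members outside the families were called at 33.8% and 25.4%, between the shares of the families and those of all loci.

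The same count was made without relying on family names. Proteins of the segment that were at least 40% identical over at least 50% of the longer protein were joined into groups, which gave 11 groups with 53 members, 30 of them tested. These held 20 calls with BL and 17 in mock. Outside the groups 24 of 70 tested members were called with BL (34.3%) and 20 of 70 in mock (28.6%). The lipid-transfer-type genes AT4G22460 and AT4G22490 and EP1 of the CRK array were outside these groups. The shares outside the groups are therefore not shares outside the tandem families. With every group counted once, as called if any of its members was, 29 of 78 units were called with BL (37.2%) and 25 of 78 in mock (32.1%). A group with several members has more chances to be called, so these last shares are not directly comparable with those over single loci. With the identity limit at 30% the shares outside the groups were 30.2% and 24.5%, and at 60% they were 36.7% and 30.4%. The groups at 30% also joined unlike genes, such as APT3 and the SAUR-like gene AT4G22620 with lipid-transfer-type and defensin-like genes.

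The response to BL was then compared within each genotype. In iaa3, 22 of the 100 tested members were called, 14 higher and 8 lower with BL, where 8.15% of all loci were called, 4.69% as higher and 3.46% as lower. In Col-0, 24 were called, 13 higher and 11 lower, where 14.3% of all loci were called, 8.45% as higher and 5.87% as lower. These comparisons share the BL libraries with the contrast that chose the segment. CRK genes were called higher with BL in both genotypes, 6 of 13 in iaa3 and 3 of 13 in Col-0, and none was lower. Of the lipid-transfer-type genes, 3 of 10 were lower and 1 higher with BL in iaa3, and 6 of 10 were lower and 1 higher in Col-0.

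CRK14 was called in both genotypes, with log2 fold changes of 1.57 ± 0.20 in iaa3 (edgeR, adjusted p = 0.000375) and 1.77 ± 0.37 in Col-0 (adjusted p = 0.00371). CRK10 rose by 1.19 ± 0.11 in iaa3 (adjusted p = 6.46e-05) and by 0.83 ± 0.12 in Col-0 (adjusted p = 0.000346). CRK11 rose by 0.67 ± 0.12 in iaa3 (adjusted p = 0.00246), a call lost without iaa3 BL replicate 2, and by 0.78 ± 0.13 in Col-0 (adjusted p = 0.001). CRK13 rose in iaa3 by 1.03 ± 0.19 (adjusted p = 0.00335), the value being 0.63 without iaa3 BL replicate 2, and in Col-0 its change was -0.27 ± 0.39 (adjusted p = 0.639). EP1 rose in iaa3 by 1.55 ± 0.28 (adjusted p = 0.0031) and changed by 0.54 ± 0.43 in Col-0 (adjusted p = 0.443). For neither CRK13 nor EP1 was the difference in response between the genotypes called (interaction adjusted p = 0.0626 and 0.250).

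ACR7, which encodes a protein with amino-acid-binding ACT domains, was among the strongest responses in both genotypes. It had 45.7 and 56.2 CPM in iaa3 with BL, against 18.1 and 13.9 CPM in iaa3 mock (1.68 ± 0.17, adjusted p = 7.68e-05), and 34.8 and 29.6 CPM in Col-0 with BL, against 14.2 and 9.97 CPM in Col-0 mock (1.42 ± 0.17, adjusted p = 0.000105). AT4G22666, a lipid-transfer-type gene, rose by 1.20 ± 0.17 in iaa3 (adjusted p = 0.000687) and by 1.64 ± 0.17 in Col-0 (adjusted p = 2.76e-05). AT4G22485 fell by 1.13 in iaa3 and by 1.46 in Col-0 on the log2 scale (adjusted p = 0.00243 and 2.64e-05). The defensin-like gene AT4G22217 had no counts in iaa3 with BL, against 17 summed over iaa3 mock, and was at least 4.79-fold lower. In Col-0 it had 1 count with BL, against 30 in mock.

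KT2/3, which encodes the potassium channel AKT2 of the phloem, had 1.38 and 1.15 CPM in iaa3 with BL, against 0.358 and 0.545 CPM in iaa3 mock (1.47 ± 0.33, adjusted p = 0.0114). In Col-0 it had 1.88 and 1.92 CPM with BL, against 1.36 and 1.24 CPM in mock, which was not called (0.55 ± 0.25, adjusted p = 0.119). The difference in response between the genotypes was not called either (interaction 0.92 ± 0.42, adjusted p = 0.163). In mock KT2/3 was lower in iaa3 than in Col-0 (-1.51 ± 0.32, adjusted p = 0.00375). Without iaa3 mock replicate 1 neither its change in iaa3 nor this difference in mock was called.

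A test of the difference in response was made (the response to BL in iaa3 minus that in Col-0, Benjamini-Hochberg adjusted p under 0.05). It called 12 of the 100 members, 7 with a positive and 5 with a negative difference, where 17.6% of all loci were called, 7.63% positive and 9.95% negative. The interaction equals the genotype difference with BL, which chose the segment, minus that in mock, which was known. Its counts and p-values are therefore no independent support for the segment. The count of members ran between 7, without either Col-0 BL replicate, and 17, without Col-0 mock replicate 2, when 1 library was left out. RBL7, a rhomboid-like protein of the intramembrane protease family, had the largest. It had 1.38 and 1.3 CPM in iaa3 with BL, against 0.894 and 1.13 CPM in iaa3 mock, and 3.63 and 4.51 CPM in Col-0 with BL, against 0.318 and 0.359 CPM in Col-0 mock. In iaa3 the log2 change of 0.39 ± 0.28 was not called (adjusted p = 0.379), and in Col-0 RBL7 rose by 3.56 ± 0.28 (adjusted p = 3.92e-06), so that the interaction was -3.17 ± 0.42 (adjusted p = 0.000521). In mock RBL7 was thus higher in iaa3 (1.56 ± 0.35, adjusted p = 0.00509), and with BL it was lower.

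AT4G22470 fell with BL in both genotypes, by 0.69 on the log2 scale in iaa3 (adjusted p = 0.0018), a call lost without iaa3 mock replicate 2 or iaa3 BL replicate 1, and by 1.81 in Col-0 (adjusted p = 1.48e-06), with an interaction of 1.11 ± 0.17 (adjusted p = 0.00133). UTR2 changed by 0.10 ± 0.10 in iaa3 and fell in Col-0 by 0.69, and CYP706A2 rose by 0.72 ± 0.18 in iaa3, a call lost without iaa3 BL replicate 2 or iaa3 mock replicate 1, and changed by -0.39 ± 0.21 in Col-0. AT4G22810 changed by 0.17 ± 0.09 in iaa3 and rose by 0.92 ± 0.08 in Col-0 (interaction -0.75 ± 0.12, adjusted p = 0.00209). Of the CRK genes only EMB1290 was called, with an interaction of 1.05 ± 0.32 (adjusted p = 0.0473), and 6 of the 8 leave-one-out fits lost it.

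**Figure D5:**
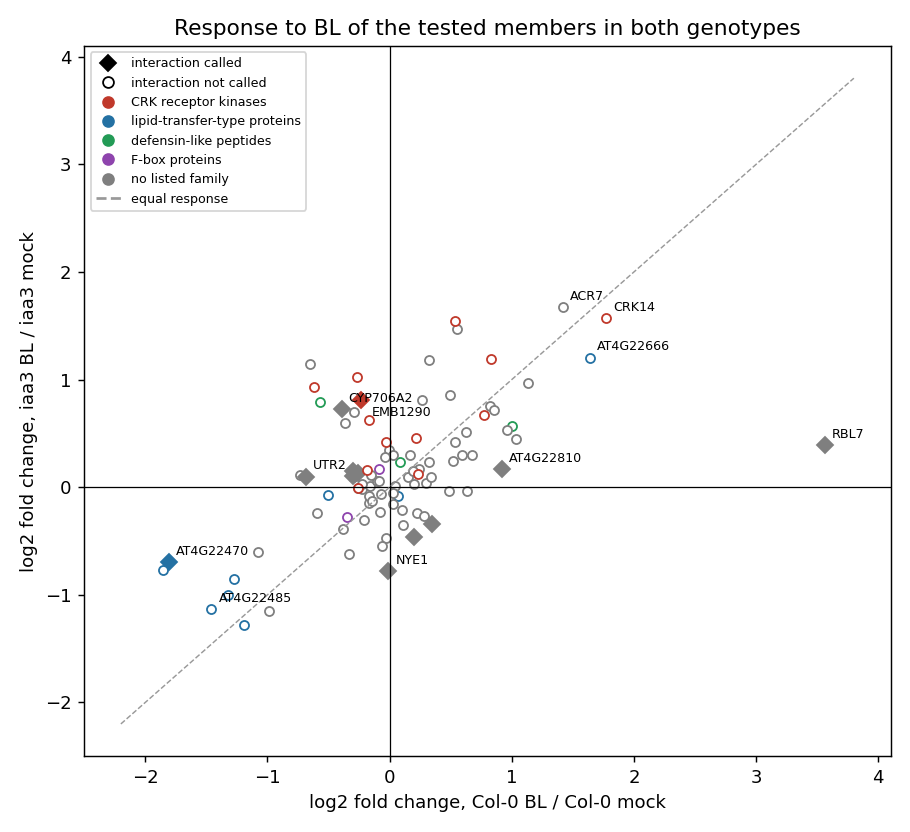
Log2 fold change with BL in iaa3 (vertical) and in Col-0 (horizontal) for 98 tested members. The 2 members without counts in iaa3 with BL are not drawn, diamonds mark the 12 members whose responses differed between genotypes, and RBL7, at 0.39 in iaa3 and 3.56 in Col-0, lies farthest from the dashed line of equal response.

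The regions upstream of the genes were searched for 4 sequences on both strands: the auxin response element TGTCTC, the ARF site TGTCGG, the G-box CACGTG and its variant CACATG, known as the HUD motif. In the 300 bases before the annotated start of RefSeq TAIR10.1, TGTCTC was present in 11.1% of the 18 members lower under both treatments, in none of the 12 protein-coding members higher under both, in 20% of the 50 called in neither and in 13.0% of 27443 genes. CACATG was present in 16.7% of the lower and 16.7% of the higher members, in 2% of those called in neither and in 13.1% of all genes. At these numbers of genes 1 gene changes a share by several percent, and a match is only a match of letters. The upstream regions of RBL7 and ACR7 are shown because both genes rose with BL in Col-0 and only ACR7 was called in iaa3. RBL7 lies at chr4:12092218-12092517 and ACR7 at chr4:11971358-11971657, both printed from the minus strand of TAIR10.1, with TGTCTC (or its complement GAGACA) and CACATG (or CATGTG) in capitals.
RBL7: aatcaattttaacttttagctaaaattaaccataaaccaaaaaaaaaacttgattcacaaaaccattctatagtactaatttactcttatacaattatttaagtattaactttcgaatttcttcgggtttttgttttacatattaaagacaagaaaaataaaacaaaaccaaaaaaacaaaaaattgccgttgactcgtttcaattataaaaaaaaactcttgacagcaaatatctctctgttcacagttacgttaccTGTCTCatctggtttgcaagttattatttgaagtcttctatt
ACR7: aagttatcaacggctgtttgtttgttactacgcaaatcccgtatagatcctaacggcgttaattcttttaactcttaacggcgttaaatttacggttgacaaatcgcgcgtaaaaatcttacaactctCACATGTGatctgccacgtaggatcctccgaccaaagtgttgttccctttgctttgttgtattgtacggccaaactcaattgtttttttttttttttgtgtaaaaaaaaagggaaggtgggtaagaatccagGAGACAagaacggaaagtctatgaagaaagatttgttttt

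Each region holds TGTCTC once, and that of ACR7 also holds CACATG on both strands in overlapping positions. Neither holds TGTCGG or the G-box. The upstream regions of CRK13, CRK14, CYP706A1, CYP706A2 and UTR2 held none of the 4 sequences, and that of the F-box gene AT4G22390 held TGTCTC at 2 places.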

How the data were processed

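RNA-Seq of 8 libraries was used, 2 each of iaa3 with BL, Col-0 with BL, iaa3 mock and Col-0 mock. Raw counts of reads for each locus, in 1 table, were deposited by the authors, and the submitters' processing notes name CASAVA 1, TopHat, HTSeq and the TAIR9 genome, without settings. Strand use, the annotation and the handling of reads that match several places are not given in the sources used here. Members, gene lists and tests were chosen with earlier results of these data known. Samples were grouped by their GEO labels.

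All loci of the table were fitted together with edgeR 4.0.16 in R 4.3.3 (low loci removed with filterByExpr by group, TMM scaling, quasi-likelihood F test with 1 coefficient per group, all 8 libraries), which left 20415 tested loci, and p-values were adjusted over all of them by Benjamini and Hochberg. The call of at least 1.5-fold and p under 0.01 takes the limits of the study's methods, which do not say whether p was adjusted, and the unadjusted p was used here. Interaction calls needed an adjusted p under 0.05. SE is the log2 fold change divided by the square root of F. CPM were computed from the counts with TMM-scaled totals. Groups at or near 0 counts were given as bounds or as ratios of summed counts with exact 95% intervals, which cover counting error only. Of the members called the same way under both treatments, 31 in all, the 24 with the largest smaller change were named, together with all CRK genes and the largest changes of each other comparison. The remaining lipid-transfer-type, defensin-like and F-box genes and GSH1 were added after their values were seen.

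Families came from gene descriptions and from protein identity, computed from coding sequences of RefSeq TAIR10.1, matched by locus number for 154 of 159 members. TAIR10.1 is not the build named for the counts, so it was used for names and sequences only. Tested on simulated counts with the mock comparison (20174 genes, 198 genes changed 4-fold), the fit recovered 98.5% of the changed genes with 63 false calls. Alternatives were DESeq2 1.42.0, other scaling, other filters, adjusted p, 2-fold, only the groups compared, a replicate block and leaving out each library.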

Additional observations from a re-analysis of the deposited data

Results flagged for a closer look

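The response to BL differed between iaa3 and Col-0 for 12 members by the interaction test (response in iaa3 minus response in Col-0, log2 scale, edgeR with adjusted p under 0.05). It was positive for CYP706A2 (1.12), AT4G22470 (1.11), EMB1290 (1.05), UTR2 (0.78), HIP1 (0.45), PYR4 (0.40) and AT4G22285 (0.39), and negative for RBL7 (-3.17), NYE1 (-0.77), AT4G22810 (-0.75), ORP2A (-0.69) and AT4G22820 (-0.67). HIP1, a co-chaperone of Hsp70, had 160 and 157 CPM in iaa3 with BL, against 141 and 144 CPM in iaa3 mock, and 129 and 135 CPM in Col-0 with BL, against 162 and 163 CPM in Col-0 mock. NYE1, the stay-green protein of chlorophyll breakdown, fell with BL in iaa3 by 0.78 on the log2 scale (adjusted p = 0.00345) and changed by -0.01 in Col-0 (adjusted p = 0.957). PYR4, an enzyme of pyrimidine synthesis, had 33.6 and 32.6 CPM in iaa3 with BL, against 32.2 and 29.4 CPM in iaa3 mock, and 25.8 and 26.0 CPM in Col-0 with BL, against 33.0 and 30.9 CPM in Col-0 mock. AT4G22285 shares a run of 418 coding bases with AT4G22410, which had no count in any library. It shares a run of 370 with AT4G22350, which had 187 to 256 counts in a library. The value of AT4G22285 may include reads of these genes. The interactions of CYP706A2, EMB1290 and NYE1 were lost in 3, 6 and 4 of the 8 leave-one-out fits. With BL, 12 of 12 heat shock and 6 of 12 hypoxia genes were called higher in iaa3 than in iaa3 mock, where 4.69% of all loci were. Both stress lists were chosen with results known, and the part of their genes in the differences above was not tested. The interaction contains the contrast that chose the segment, so these calls are no independent support for it.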

How the results depend on the processing

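Of 1848 single-gene values recomputed for 112 gene and comparison pairs, 1711 stayed called or stayed uncalled, 114 lost the call and 23 gained it. None that was called in the main or the alternative fit changed direction. The direction of values called in neither fit was not compared. With at least 10 counts in every library, 29 members and 6 CRK genes were called with BL between genotypes, and 23 and 4 in mock. At 2-fold, 13 members and 1 CRK gene were called for BL in Col-0, 12 members for BL in iaa3 and 4 for the interaction. The CRK interaction count was 2 with library size alone and 2 with the replicate block. Leaving out each library gave 36 to 45 members between genotypes with BL, 29 to 38 in mock, 17 to 23 for BL in iaa3, 20 to 26 for BL in Col-0 and 7 to 17 for the interaction, and 9 to 10, 4 to 7, 4 to 6, 3 to 3 and 0 to 2 CRK genes for the same comparisons. The low of 7 interactions came without Col-0 BL replicate 1 and without Col-0 BL replicate 2, and the low of 4 CRK genes in mock without iaa3 mock replicate 1.

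The labels do not pair replicates, and deviations of same-numbered libraries correlated between -0.06 and 0.24, so the block is only an alternative. It moved no other count by over 1.5 times. A fit to only the groups compared was not run for the interaction, which needs all 4. With 2 libraries per group, differences in low genes were detectable only when large.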
